A study of Mus musculus with 48 samples.

Results

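Liver was set against lung in 12 of 48 mouse arrays, those of the sampling called time 2. Members were chosen by their sample titles: 6 liver arrays and 6 lung arrays, with 3 arrays from A/J and 3 from C57BL/6J in each tissue, and every probe set other than the controls entered the comparison. A/J and C57BL/6J are inbred strains. All mice were untreated as far as the labels say, male, 3 months old and littermates within a group of 3, and no transgene or deletion is named. The whole series also holds heart and spleen and an earlier-numbered sampling, time 1, and the labels do not say what the times stand for. Each array was hybridised with target made from total RNA of a dissected organ, so each value is an average over all cells of that organ, blood included.

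The liver is mostly hepatocytes, which make the plasma proteins, burn and build fatty acids, clear ammonia through the urea cycle, make bile acids from cholesterol and modify drugs with cytochrome P450 enzymes. The lung is a mixture. Flat type 1 cells line the alveoli for gas exchange, cuboidal type 2 cells secrete surfactant, club cells and ciliated cells line the airways, and a dense capillary bed, smooth muscle, elastic matrix and resident macrophages surround them. In such bulk samples, fewer cells of a type and less RNA per cell cannot be told apart.

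Values are the deposited log2 signals, so a difference of 1 is a 2-fold change. Array medians lay between 8.87 and 8.93 in liver and between 8.89 and 8.95 in lung. The mean replicate SD over probe sets was 0.117 in A/J livers, 0.111 in C57BL/6J livers, 0.119 in A/J lungs and 0.140 in C57BL/6J lungs. All arrays of time 2 carry 1 run name, and within it each tissue forms a block of file numbers, so tissue and order within the run cannot be told apart. The control probe sets for Gapdh showed a larger gap between the 3′ and 5′ ends in lung, at 0.158 to 0.348 in liver and 1.05 to 1.96 in lung, whereas those for actin gave 0.263 to 0.496 in liver and 0.207 to 0.596 in lung. The part of this gap in the results was not tested. The sources do not say whether 1 mouse gave both organs, so p-values measure the spread between these samples only.

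The defining markers of each organ went with its label. Alb, serum albumin, read 14.39 to 14.46 in the 6 livers with a median of 14.42, against 8.27 to 9.73 in the 6 lungs with a median of 8.90. Sftpc, surfactant protein C of type 2 cells, read 8.35 to 8.56 in livers with a median of 8.49, against 14.47 to 14.54 in lungs with a median of 14.52. Neither gene overlapped between the organs. Of 4 defining type 2 markers, Sftpa1 is not among the genes with a probe set of 1 symbol here, and Sftpd did not separate the organs at 7.90 to 8.24 in livers and 7.78 to 8.46 in lungs (adjusted p = 0.896). Pecam1 of endothelium (difference -0.14, adjusted p = 0.191) and Marco of alveolar macrophages (-0.19, adjusted p = 0.408) also did not pass, while Cdh5, Tek and Chil3 of the same cell types did and are described further on.

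Exocrine pancreas genes stood out in 1 liver, and cardiomyocyte genes read higher in all 6 lungs than in any liver. The mean level over 9 exocrine pancreas genes, which encode digestive enzymes, was 12.86 in the liver of C57BL/6J replicate 2 and 9.44 to 9.70 in the other livers, against 9.10 to 9.45 in the lungs. The mean over 15 cardiomyocyte genes was 8.12 to 8.36 in livers and 9.03 to 10.18 in lungs, against 12.80 to 13.18 in hearts. Myh6, the main myosin heavy chain of adult mouse heart, read 6.21 to 6.60 in livers and 9.41 to 10.64 in lungs. Which cells these transcripts came from was not tested. Their part in other results was not tested. The ranges given for arrays left out in turn include the fits without the liver of C57BL/6J replicate 2 and do not single it out.

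Across the whole array, liver and lung differed at 7654 of 12422 probe sets (61.6%) by limma's moderated test with strain as a block and an adjusted p below 0.05. Of these, 3882 were higher in liver (31.3%) and 3772 were lower (30.4%). With 6 arrays a tissue and small replicate SDs, many calls were small, and the median size of the difference over all probe sets was 0.27. A difference of at least 1 was called higher at 773 probe sets (6.22%) and lower at 1069 (8.61%), together 14.8%. Read as 1 probe set a gene, 574 genes were higher by that rule and 804 lower, of 8251 named genes. The balance turned round among large differences. At 3 or more, 198 probe sets were higher in liver and 132 lower, and at 5 or more, 67 were higher and 8 lower. The 6 liver and 6 lung arrays did not overlap at 4908 probe sets (39.5%).

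**Figure D1:**
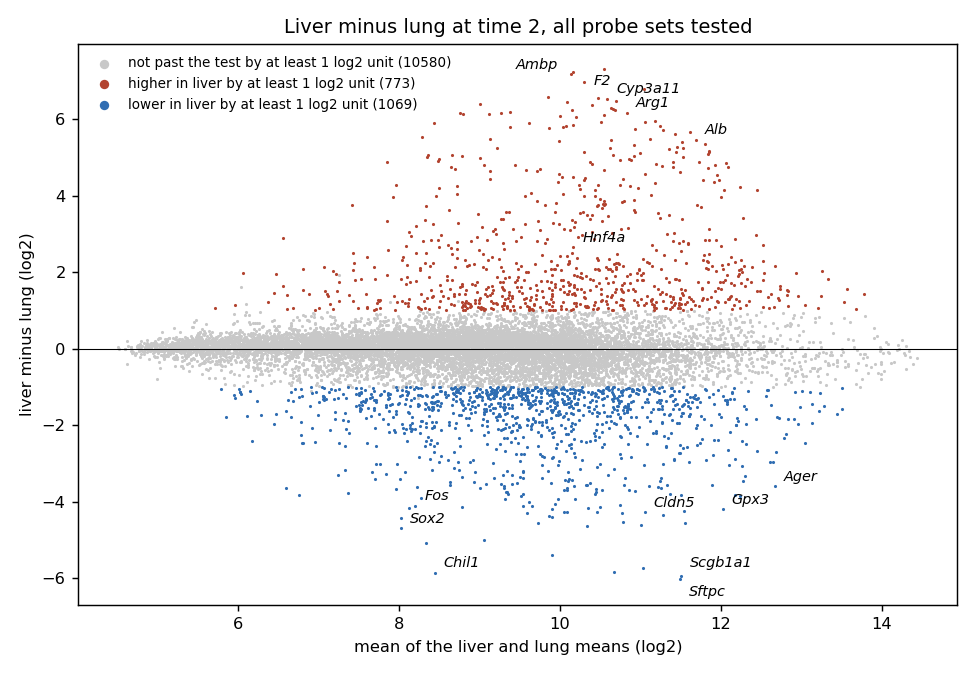
Difference between liver and lung (log2, vertical axis) against the mean of both tissues (log2, horizontal axis) for each of 12422 probe sets at time 2. Colour marks the 773 probe sets called higher and the 1069 called lower by at least 1, and the points above 5 outnumber those below -5 by 67 to 8.

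For the probe sets with the largest differences, the organ with the lower value had a median below that of the arrays. Where liver was higher by 5 or more, the lung means ran between 5.48 and 9.29 with a median of 7.46, and the same probe sets had medians of 7.54 in heart and 7.95 in spleen. No detection calls were used here, and where a low value is background the difference is a lower limit. Where liver was lower by 3 or more, its means lay between 4.77 and 10.9 with a median of 7.98. The same probe sets had medians of 9.64 in heart and 9.48 in spleen, both above that of liver, so as a set they were not particular to lung.

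The 15 genes with the largest excess in liver covered blood proteins, P450s and single-carbon or nitrogen metabolism. They were drawn only from probe sets without overlap between the 6 livers and 6 lungs. Ambp, which encodes the precursor of alpha-1-microglobulin and bikunin, read 13.63 to 13.85 in livers with a median of 13.79, against 6.45 to 6.72 in lungs with a median of 6.53. The difference was 7.23 (SE 0.06, adjusted p = 2.01e-18), or 150-fold. F2, prothrombin, read 13.55 to 13.90 in livers with a median of 13.82 and 6.57 to 6.96 in lungs with a median of 6.81, a difference of 6.98 (SE 0.08, adjusted p = 1.12e-17). Arg1, the arginase that ends the urea cycle, had a median of 14.04 in livers (13.29 to 14.21) and 7.72 in lungs (7.45 to 8.07), with a difference of 6.17. Cyp3a11, a main drug-oxidising P450 of mouse liver, read 13.83 to 13.91 in livers and 6.71 to 7.74 in lungs, a difference of 6.54. The others were Bhmt, betaine homocysteine methyltransferase (7.18), Serpina1c, an alpha-1-antitrypsin (6.80), Apoh, beta-2-glycoprotein I (6.58), Akr1c6, a hydroxysteroid dehydrogenase (6.49), Cyp3a25 (6.41), the protease inhibitors Mug1 (6.39) and Pzp (6.31), Cyp2d10 (6.27), Ces3a, a carboxylesterase (6.24), and the complement regulators Cfi (6.24) and C4bp (6.20). Serpina1c, the P450s, Mug1 and Pzp belong to families of near-identical genes, and whether a probe set reads relatives was not checked.

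The 15 genes lower in liver by the most included genes known from several compartments of the lung. Sftpc was lower by 6.03 on the log2 scale (difference -6.03, SE 0.06, adjusted p = 2.01e-18). Scgb1a1, the secretoglobin of airway club cells, read 8.34 to 8.86 in livers with a median of 8.49, against 14.32 to 14.54 in lungs with a median of 14.50, a difference of -5.95. Chil1, a chitinase-like glycoprotein, had a median of 5.53 in livers (5.41 to 5.596) and 11.49 in lungs (10.74 to 11.61), a difference of -5.87. This list too was drawn only from probe sets without overlap between the organs. S100a6, a calcium-binding protein (-5.85), Gsn, gelsolin, which severs actin filaments (-5.75), Limch1 (-5.40) and Thbd, thrombomodulin, an anticoagulant receptor of endothelium (-5.08), followed. The remaining genes were Atp11a, a phospholipid flippase (-5.00), Sox2, a transcription factor of airway epithelium (-4.70), Mgp, matrix Gla protein (-4.64), Wfdc2, a secreted epithelial protein (-4.61), Lyz2, lysozyme of macrophages and mouse type 2 cells (-4.55), Anxa1, annexin A1 (-4.55), Cav1, the coat protein of caveolae (-4.52), and Krt19, an epithelial keratin (-4.40).

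**Figure D2:**
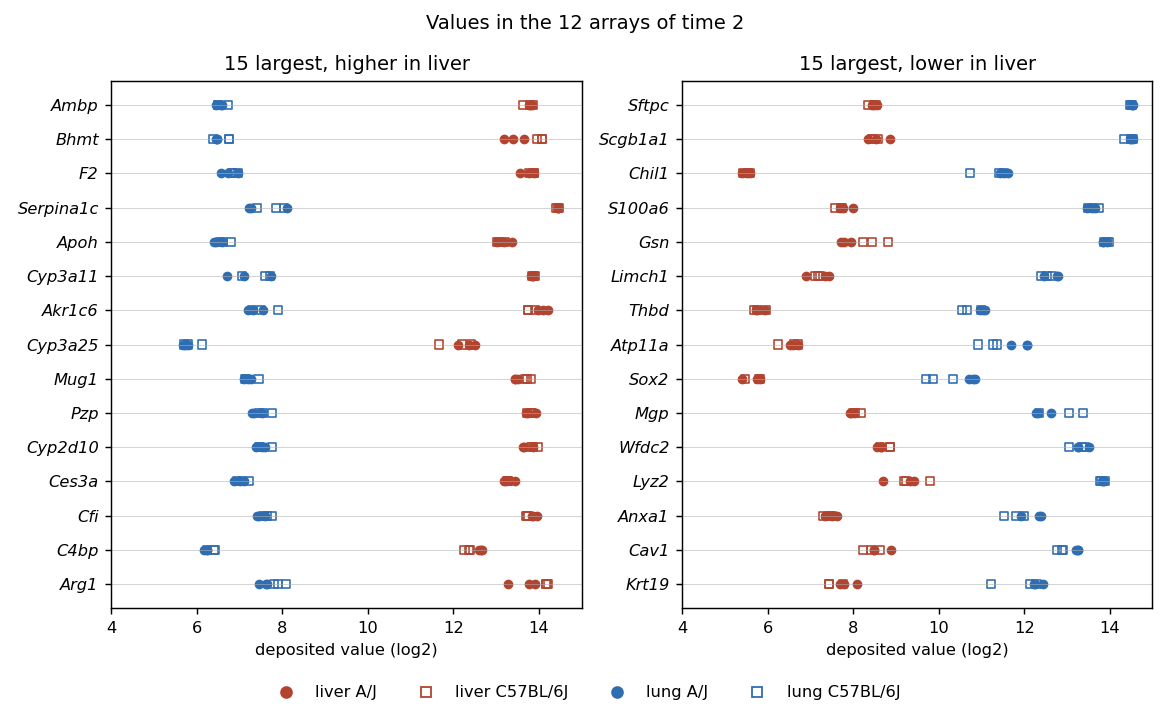
Deposited values (log2, horizontal axis) in each of the 12 arrays for the 15 genes highest in liver relative to lung (left) and the 15 lowest (right). Filled circles are A/J and open squares C57BL/6J, liver in red and lung in blue. Genes were drawn only from probe sets without overlap between the 6 livers and 6 lungs, so the gap was set by that choice.

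Promoters were described for genes with large differences, grouped by direction. The groups were set by the size of the same liver minus lung difference, so their shared direction is not a result. In windows of 250 bases before to 50 after the start, taken from RefSeq models of mouse build GRCm38.p6, 127 of 155 genes higher in liver by 3 or more had a window (150 windows), as did 83 of 103 genes lower by 3 or more (119 windows). GTTAAT, a core motif of the liver factor HNF1, stood on either strand in 18.7% of the windows of the higher genes and 4.20% of those of the lower genes, against 5.16% of 8408 windows of all genes named on the array. CAAAGTCCA, a motif of HNF4, stood in 6 windows of the higher genes (4%) and in 0 of the lower genes, against 0.464% of all array windows. CTCAAG, a motif of the lung and thyroid factor NKX2-1, stood in 12.7% and 13.4% of the windows of the higher and lower genes, against 14.2% of all array windows. TATAAA, the TATA box, stood in 25.3% of windows of the higher genes and 13.4% of the lower genes, against 9.98% of all. Median GC content was 50.3% in windows of the higher genes and 59% in those of the lower genes, against 59.7% over the array, and the first and last of these motifs are rich in A and T. A match describes these letters only.

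The stretches below are the 140 bases before the start, read 5′ to 3′ along the gene, with the motifs in capitals. These genes were picked by hand and each holds a motif, so they do not stand for the windows at large. Alb (chr5:90460730-90460869, plus strand), Fgb, fibrinogen beta (chr3:83049864-83050003, minus), C4bp (chr1:130661619-130661758, minus), Pzp (chr6:128526721-128526860, minus) and Fabp1, liver fatty acid binding protein (chr6:71199739-71199878, plus), hold GTTAAT, in Fgb on the other strand as ATTAAC. Cyp3a11 (chr5:145879855-145879994, minus) and Cyp8b1, the sterol 12-alpha-hydroxylase of bile acid synthesis (chr9:121916306-121916445, minus), hold CAAAGTCCA, and Sftpb, surfactant protein B (chr6:72304470-72304609, plus), holds CTCAAG at 2 places. Fabp1 and Cyp8b1 also hold TATAAA.
Alb: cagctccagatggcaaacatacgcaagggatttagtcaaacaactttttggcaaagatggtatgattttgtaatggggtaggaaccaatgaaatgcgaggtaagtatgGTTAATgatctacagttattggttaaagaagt
Fgb: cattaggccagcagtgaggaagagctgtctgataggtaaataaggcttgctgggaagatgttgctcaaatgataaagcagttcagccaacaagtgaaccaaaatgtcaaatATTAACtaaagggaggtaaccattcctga
C4bp: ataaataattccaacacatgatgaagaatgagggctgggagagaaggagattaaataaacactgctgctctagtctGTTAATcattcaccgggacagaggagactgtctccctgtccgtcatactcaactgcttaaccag
Pzp: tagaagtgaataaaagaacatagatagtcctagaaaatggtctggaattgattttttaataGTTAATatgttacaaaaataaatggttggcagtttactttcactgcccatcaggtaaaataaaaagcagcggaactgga
Fabp1: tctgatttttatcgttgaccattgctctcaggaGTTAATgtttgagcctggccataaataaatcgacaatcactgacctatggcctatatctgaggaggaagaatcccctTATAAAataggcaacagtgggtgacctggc
Cyp3a11: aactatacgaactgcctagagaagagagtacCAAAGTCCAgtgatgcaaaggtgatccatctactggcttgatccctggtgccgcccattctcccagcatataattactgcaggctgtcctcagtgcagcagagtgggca
Cyp8b1: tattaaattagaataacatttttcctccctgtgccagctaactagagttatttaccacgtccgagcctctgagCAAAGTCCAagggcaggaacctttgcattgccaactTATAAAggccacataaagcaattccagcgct
Sftpb: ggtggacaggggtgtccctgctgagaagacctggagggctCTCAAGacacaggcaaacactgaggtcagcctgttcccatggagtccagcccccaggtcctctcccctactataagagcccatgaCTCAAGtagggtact
The expression differences of these genes were 5.47 for Alb, 6.17 for Fgb, 6.20 for C4bp, 6.31 for Pzp, 5.07 for Fabp1, 6.54 for Cyp3a11, 3.72 for Cyp8b1 and -3.82 for Sftpb.

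Plasma proteins were higher in liver throughout. All 25 measured genes for proteins that hepatocytes secrete were higher in liver, 24 of them by at least 1, with a median difference of 4.26, against 0.037 over all probe sets. Orm1, the acute phase protein orosomucoid 1, read 11.40 to 12.36 in livers with a median of 11.84, against 5.64 to 5.87 in lungs with a median of 5.70, a difference of 6.15. Ahsg, fetuin A, had medians of 14.15 in livers and 8.34 in lungs (difference 5.83). Hp, haptoglobin, was the exception in size at 0.24 and is taken up below. Ttr, the thyroid hormone and retinol carrier, differed by 4.27.

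Among 29 complement and coagulation genes, 24 were higher in liver and 2 lower, with a median of 3.76. The 3 fibrinogen chains stood together. Fgb read 12.30 to 12.38 in livers with a median of 12.36, against 5.86 to 6.40 in lungs with a median of 6.20, a difference of 6.17 (SE 0.08). Fgg differed by 6.13, and Fga, the alpha chain, by 4.66 with a spread set by strain, described with the strains further on. The 2 genes counted as lower were Pros1, the anticoagulant protein S (-0.38, adjusted p = 0.0361), and F7, coagulation factor VII, whose probe sets disagreed. F7 was at -0.21 by the brighter probe set used in the count (adjusted p = 0.0154) and at 2.08 by the other, which averaged 10.96 in livers and 8.89 in lungs (adjusted p = 3.76e-11), so no direction is given for it.

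Lipoprotein genes followed the plasma proteins. Of 16 measured apolipoprotein and lipid transfer genes, 14 were higher by at least 1, with a median of 4.23. Apob, the structural protein of very low density lipoprotein, read 10.90 to 11.26 in livers and 5.43 to 5.63 in lungs (difference 5.55), and Apoa1, the main protein of high density lipoprotein, 14.31 to 14.48 in livers and 8.996 to 9.56 in lungs (5.09). Pltp, the phospholipid transfer protein, went the other way, with a median of 10.41 in livers (9.69 to 10.92) and 13.34 in lungs (12.87 to 13.45), a difference of -2.92 (SE 0.18, adjusted p = 2.04e-09). Apoe, named after its values were seen, read 14.45 to 14.54 in livers and 12.73 to 13.28 in lungs, a difference of 1.43.

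Cytochrome P450 genes divided by organ. Of 34 measured, 26 were higher in liver and 5 lower, with a median of 2.04. Cyp4a10, a fatty acid omega-hydroxylase, had a median of 11.51 in livers (10.61 to 11.81) and 5.25 in lungs (5.13 to 6.08), a difference of 5.92. Cyp2d26 differed by 5.28. Cyp4b1, a P450 of lung known for bioactivating pneumotoxins, read 11.09 to 11.20 in livers and 14.03 to 14.16 in lungs, a difference of -2.97 (SE 0.05, adjusted p = 7.77e-16), with no overlap. Cyp2s1, an epithelial P450, was at -1.99, Cyp1b1, which hydroxylates oestrogens, at -0.90, Cyp2b10 at -0.60 and Cyp2f2 at -0.37.

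Conjugating and antioxidant enzymes showed the same division with a smaller median, 1.03, and 33 of 48 genes higher and 7 lower. Ugt2b5, a glucuronosyltransferase, read 13.10 to 13.34 in livers and 7.001 to 7.30 in lungs (difference 6.05). Ces1c, a serum carboxylesterase, differed by 4.98 and Ephx2, soluble epoxide hydrolase, by 4.71. Gpx3, the secreted glutathione peroxidase, read 9.71 to 10.11 in livers with a median of 9.96, against 13.83 to 14.38 in lungs with a median of 14.15, a difference of -4.20. Sod3, the extracellular superoxide dismutase, was at -1.77, Mgst3 at -1.15 and Fmo1, a flavin monooxygenase, at -0.92.

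Nitrogen and amino acid metabolism was higher in liver in 29 of 32 genes and lower in 1, with a median of 2.24. Otc, ornithine transcarbamylase, read 12.05 to 12.84 in livers and 6.39 to 6.87 in lungs (5.90). Cps1, carbamoyl phosphate synthetase, which commits ammonia to the urea cycle, read 14.14 to 14.30 in livers and 8.60 to 9.07 in lungs (5.40). Gnmt, glycine N-methyltransferase, differed by 5.22. Glul, glutamine synthetase, which in liver is confined to cells around the central vein, was lower at 10.99 to 11.54 in livers, against 11.50 to 11.93 in lungs (-0.32, adjusted p = 0.0153), and those ranges overlapped.

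Genes of glucose and glycogen metabolism were higher in 12 of 13 members, with a median of 2.06, or 1.22 when all probe sets of a gene were averaged. Fbp1, fructose bisphosphatase 1, had medians of 13.46 in livers and 8.39 in lungs (5.04), Pck1, phosphoenolpyruvate carboxykinase, 13.01 in livers and 8.16 in lungs (4.68), and G6pc, the catalytic subunit of glucose 6-phosphatase, 13.63 in livers and 9.74 in lungs (3.77). Slc2a2, the glucose transporter GLUT2, read 10.47 to 11.64 in livers and 5.85 to 6.16 in lungs (4.95). No member was lower.

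All 12 bile acid genes were higher by at least 1, with a median of 3.04. Slc10a1, the sodium taurocholate carrier of the sinusoidal membrane, read 12.59 to 13.29 in livers with a median of 13.11, against 6.72 to 7.11 in lungs with a median of 6.997 (6.08, SE 0.11). Cyp8b1 read 13.34 to 13.90 in livers and 9.69 to 10.20 in lungs. Slc27a5, a bile acid CoA ligase, differed by 3.86 and Abcb4, the canalicular phospholipid flippase, by 3.77.

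Of 33 genes for fatty acid oxidation and peroxisomes, 30 were higher and 0 lower (median 1.65, by the same limma test, where 30.4% of probe sets were called lower). Uox, urate oxidase of peroxisomes, differed by 5.92, Slc27a2, a very long chain acyl-CoA synthetase, by 5.85, and Phyh, phytanoyl-CoA hydroxylase, by 3.97. Ehhadh, the peroxisomal bifunctional enzyme, varied more among livers, at 9.05 to 10.998, against 5.62 to 5.93 in lungs (4.27, SE 0.18). Respiratory chain genes moved by less. Of 61 measured oxidative phosphorylation genes, 48 were higher and 2 lower, with a median of 0.74. Sdha, a subunit of succinate dehydrogenase, differed by 1.53 and Ndufb9 of complex I by 1.36. Both genes lower in liver encode heart and muscle forms of cytochrome oxidase subunits, Cox6a2 (9.38 to 9.76 in livers, 10.98 to 11.56 in lungs, -1.54) and Cox7a1 (-0.87).

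Cholesterol and fatty acid synthesis was less one-directional, with 20 of 27 genes higher, 5 lower and a median of 0.54. Sc5d, a late enzyme of cholesterol synthesis, had medians of 10.11 in livers (9.45 to 10.51) and 6.99 in lungs (6.60 to 7.69), a difference of 2.97. Ebp, sterol isomerase, was at 2.095 and Dhcr7, the last reductase, at 1.70. The lower genes were on the fatty acid side. Scd2, a stearoyl-CoA desaturase, read 8.85 to 9.10 in livers and 12.14 to 12.85 in lungs (-3.56, SE 0.10), Fasn, fatty acid synthase, was at -0.98 and Acly, ATP citrate lyase, at -0.60.

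Among 23 transcription factors known in liver, 17 were higher, 3 lower and 3 not called (median 0.98). Ppara, the nuclear receptor for fatty acid oxidation, read 11.56 to 12.10 in livers and 8.41 to 8.75 in lungs (3.30, SE 0.08). Hnf4a, which acts on many hepatocyte promoters, had a median of 11.53 in livers (11.11 to 11.75) and 8.78 in lungs (8.64 to 9.11), a difference of 2.66. Foxa3 (2.84), Nr5a2 (2.18) and the xenobiotic receptor Nr1i3 (1.96) were also higher. The other FOXA factors ran the other way. Foxa1 read 8.06 to 8.81 in livers and 9.79 to 10.71 in lungs (-1.95, adjusted p = 5.45e-08), and Foxa2 10.68 to 11.17 in livers and 11.001 to 11.79 in lungs (-0.53, adjusted p = 0.00126), with overlap for Foxa2.

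Turning to lung cell types, 11 of 15 type 2 cell and surfactant genes were lower in liver, 10 of them by at least 1, and 1 was higher (median -2.78). Sftpb read 10.12 to 10.43 in livers and 14.02 to 14.22 in lungs (-3.82, SE 0.06). Napsa, napsin A, a protease that processes surfactant protein B, had medians of 9.40 in livers and 13.81 in lungs (-4.24), and Slc34a2, the phosphate carrier of type 2 cells, 8.42 in livers and 12.68 in lungs (-4.15). Of 13 type 1 cell genes, 11 were lower and 2 higher (median -2.96). Ager, the receptor for advanced glycation end products, read 10.79 to 10.95 in livers and 14.45 to 14.49 in lungs (-3.60, SE 0.05), and Pdpn, podoplanin, 5.99 to 6.28 in livers and 9.53 to 10.20 in lungs (-3.67). The 2 higher genes were Igfbp2, an insulin-like growth factor binding protein (1.64), and Krt18, a keratin that hepatocytes also make (0.91).

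The airway list split, with 10 of 21 genes lower and 6 higher in liver (median -0.29). Over all probe sets, 30.4% were lower and 31.3% higher, so the count of higher members is near the share of the whole array. Besides Scgb1a1, Bpifb1, a secreted airway protein, read 7.24 to 7.43 in livers and 10.22 to 11.44 in lungs (-3.54), and Reg3g, an antibacterial lectin, 9.05 to 9.47 in livers and 10.30 to 11.42 in lungs (-1.67). Every higher member was under 1, among them Tppp3 (0.38) and Muc5ac (0.33), the last at 6.69 to 7.11 in livers and 6.48 to 6.78 in lungs.

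Endothelial genes were lower in liver in 29 of 37 cases, 21 of them by at least 1, and higher in 3 (median -1.33). Cldn5, the claudin of endothelial tight junctions, had a median of 8.98 in livers (8.41 to 9.23) and 13.24 in lungs (12.79 to 13.57), a difference of -4.28. Cd93 differed by -3.94, Ramp2, a partner of the adrenomedullin receptor, by -3.80, Vwf, von Willebrand factor, by -3.76 and Cdh5, vascular endothelial cadherin, by -3.63. Kdr, the main receptor for vascular endothelial growth factor A, read 9.21 to 9.49 in livers and 10.42 to 11.11 in lungs (-1.36). The vessels of liver have their own markers, and of 12 sinusoidal endothelial and stellate cell genes 3 were higher, 5 lower and 4 not called. Fcgr2b, an Fc receptor of sinusoidal endothelium, was at 1.19, whereas Lyve1, a hyaluronan receptor of sinusoidal and lymphatic endothelium, read 6.71 to 7.53 in livers and 8.44 to 10.51 in lungs (-2.49, SE 0.20).

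Contractile and matrix genes were mostly lower in liver. Of 18 smooth muscle and pericyte genes, 15 were lower and 1 higher (median -1.06), among them Csrp1 (-4.17), Acta2, smooth muscle actin, at 7.90 to 8.47 in livers and 11.29 to 12.04 in lungs (-3.52), and Tagln, transgelin (-2.24). Of 60 matrix and fibroblast genes, 44 were lower, 29 of them by at least 1, and 3 were higher (median -0.97). Mgp read 7.92 to 8.17 in livers and 12.29 to 13.37 in lungs, Npnt, nephronectin, was at -4.21, Postn, periostin, at -3.81 and Sparc at -3.60. Col18a1, whose product gives endostatin, was the matrix gene highest in liver relative to lung, at 12.86 to 13.18 in livers and 10.62 to 10.80 in lungs (2.28, SE 0.06). Fn1, fibronectin, which hepatocytes also release into plasma, was at 0.55.

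Of 37 transcription factors known in lung epithelium, mesenchyme and vessels, 32 were lower in liver and 3 higher (median -0.94). Sox2 read 5.39 to 5.83 in livers and 9.69 to 10.84 in lungs. Klf4 (-3.65), Sox18 of endothelium (-3.16), Id1 (-2.30), Klf5 (-2.07), Hoxa5 (-1.98) and Foxf1 of lung mesenchyme (-1.77) were lower by at least 1. Id2 was the factor highest in liver relative to lung at 0.99.

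Immune cell genes were read by cell type. Of 24 macrophage genes, 14 were lower in liver and 4 higher (median -0.36). Chil3, a chitinase-like protein of alveolar macrophages, had a median of 8.35 in livers (8.13 to 8.59) and 11.66 in lungs (10.58 to 12.88), a difference of -3.43 (SE 0.27). Kupffer cells are the macrophages of liver sinusoids, and 8 of 13 genes listed for them were higher in liver and 2 lower (median 0.29). The list averaged 10.93 in spleens, against 10.09 in livers and 9.64 in lungs, so its level is not particular to liver. Cd5l read 8.23 to 9.45 in livers and 6.41 to 6.79 in lungs (2.15), and Clec4f, a lectin of Kupffer cells, 9.90 to 10.53 in livers and 8.29 to 8.58 in lungs (1.86). Adgre1, which encodes F4/80 and was chosen after its values were seen, did not pass by its brighter probe set, at 8.93 to 9.85 in livers and 9.13 to 9.33 in lungs (adjusted p = 0.824), while a dimmer one was higher in liver at means of 5.75 in livers and 5.31 in lungs (0.44, adjusted p = 0.00125).

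Neutrophil and monocyte genes were lower in liver in 12 of 22 cases and higher in 3, with S100a8 at 7.36 to 7.94 in livers and 10.72 to 12.36 in lungs (-4.12) and S100a9, its partner in calprotectin, at -2.76. Of 19 B cell genes, 16 were lower and 0 higher, at a median of -0.72 (limma, against 30.4% of all probe sets lower). Ighm, the mu heavy chain, read 10.07 to 10.78 in livers and 11.55 to 12.65 in lungs (-1.57) by the brightest probe set, while 3 others under its symbol were called higher (0.20 to 0.47). In contrast, 16 of 27 T and NK cell genes were not called, 8 were lower, near the 30.4% of all probe sets, and 3 higher. The largest difference was that of Ccl5, a chemokine, at -0.93. Class II genes H2-Aa (-2.64), H2-Ab1 (-1.49) and H2-Eb1 (-1.34) were lower, as were 13 of 22 genes of antigen presentation. H2-Q10, a secreted class I molecule of mouse liver, was higher, at 13.67 to 14.07 in livers and 8.83 to 9.24 in lungs (4.87, SE 0.06).

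Chemokine genes were mixed, with 7 of 32 higher and 12 lower (median -0.02), where 31.3% of all probe sets were higher and 30.4% lower. Ccl9 read 11.16 to 13.19 in livers and 9.78 to 10.22 in lungs (2.15), and Cxcr4 6.07 to 6.32 in livers and 8.34 to 9.80 in lungs (-3.02). Of 24 interferon response genes, 15 were lower and 4 higher (median -0.46), with Gbp2 at -1.69 and Gbp3 at -1.30, and Iigp1, an immunity-related GTPase, higher at 2.17.

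Genes for vascular tone and prostaglandins included both ends of the angiotensin pathway. Agt, angiotensinogen, the substrate that liver releases, read 12.998 to 13.51 in livers and 9.61 to 10.04 in lungs (3.38, SE 0.08). Ace, the converting enzyme on lung endothelium, read 8.32 to 8.57 in livers and 11.53 to 11.98 in lungs (-3.23, SE 0.09), by the probe set with the higher level, while another probe set of Ace gave 0.006 and did not pass (adjusted p = 0.948). Of 26 genes in this list, 16 were lower and 4 higher, among the lower ones Hpgd, which inactivates prostaglandins, at -1.74, Ptgis, prostacyclin synthase, at -1.74 and Ptgs2 at -1.30.

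Immediate early genes respond within minutes to stimulation, handling included. They were listed together with stress genes, and this list was lower in liver in 20 of 28 cases and higher in 1 (median -0.73). Fos varied widely among lungs, at 5.91 to 6.88 in livers with a median of 5.99, against 9.14 to 12.19 in lungs with a median of 10.15, a difference of -4.11 (SE 0.38, adjusted p = 2.36e-07). Ier3 (-2.86), Klf6 (-2.83), Dusp1 (-2.52) and Btg2 (-1.40) were also lower. The exception was Mt1, metallothionein 1, at 12.61 to 14.16 in livers and 11.99 to 12.72 in lungs (1.13). How long each organ took to dissect is not given.

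Several housekeeping lists differed by little. Of 31 proteasome subunit genes, 20 were higher and 0 lower (limma, where 30.4% of all probe sets were lower), but the median was only 0.48. Of 23 ribosomal protein genes, 12 were lower and 4 higher (median -0.19, or -0.10 with all probe sets of a gene averaged). Endoplasmic reticulum genes were higher in 13 of 38, near the 31.3% of all probe sets, and lower in 7 (median 0.16). The largest were Pdia6, a disulfide isomerase (1.74), and Mcfd2, a cargo receptor for clotting factors (1.41). Among 13 clock genes 5 were higher and 4 lower, all under 1. Per1 (-0.86), Cry1 (-0.64) and Per2 (-0.48) were lower, and Nr1d2 (0.57), Cry2 (0.43), Dbp (0.40) and Nr1d1 (0.38) higher. Of 32 cell cycle genes, 16 were lower and 1 was higher, with Cdkn1c, a cyclin kinase inhibitor (-2.70), Ccnd1, cyclin D1 (-1.75), and Pcna (-1.01) lowest and Tk1, thymidine kinase, higher at 0.71.

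**Figure D3:**
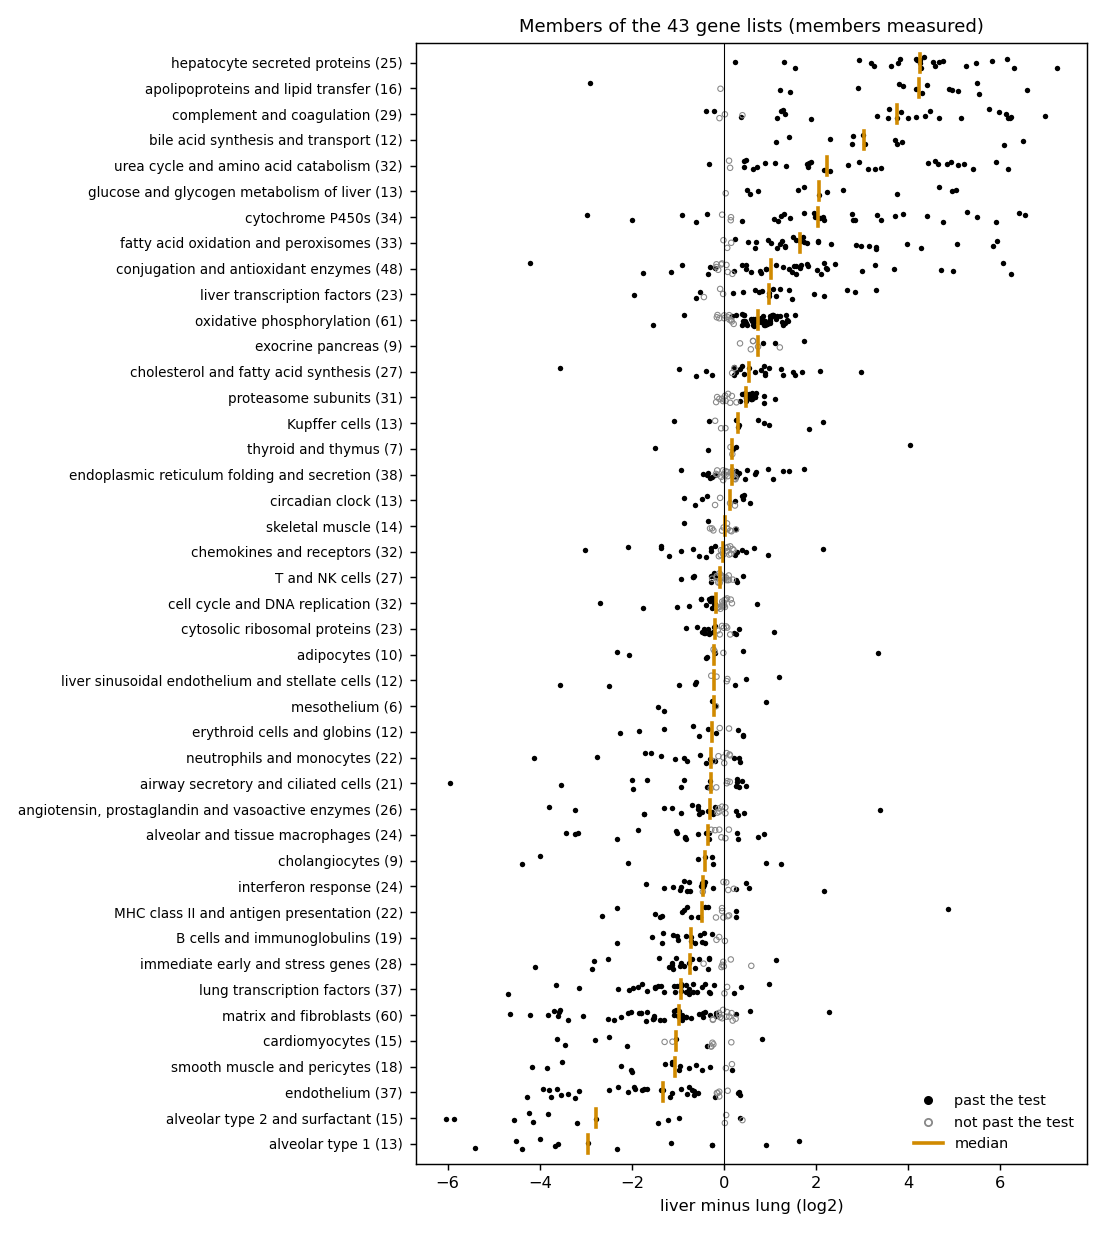
Liver minus lung differences (log2, horizontal axis) of the measured members of 43 gene lists, ordered by median, with filled points past the test, open points not past it and a bar at the median. Medians run from 4.26 for hepatocyte secreted proteins to -2.96 for type 1 cell genes, and single members such as Pltp, Gpx3 and H2-Q10 lie far from their lists.

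Genes listed for blood cells and for other tissues were read as well. Globin and erythroid genes were lower in liver in 7 of 12 cases and higher in 3. Hba-a1, alpha globin, read 13.75 to 14.15 in livers and 14.54 to 14.58 in lungs (-0.53), and Alas2, which starts haem synthesis in red cells, was at -0.68. Of 15 cardiomyocyte genes, 7 were lower and 1 higher, with Myh6 at -3.62, Myl7, the atrial light chain, at -3.45 and Tnnt2 at -2.81, whereas skeletal muscle genes were not called in 11 of 14. Cela1, an elastase, was higher in liver at 1.73, and without the liver of C57BL/6J replicate 2 it stayed higher at 1.26 (adjusted p = 3.5e-05). Among 10 adipocyte genes, 5 were lower and 2 higher, with Adipoq, adiponectin, at 7.13 to 7.58 in livers and 8.69 to 10.24 in lungs (-2.07) and Car3, which hepatocytes also make, at 3.35. Of 9 bile duct markers, 7 were lower in liver, among them the epithelial genes Krt19 (-4.40), Krt7 (-4.00) and Epcam (-2.09).

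Some pairs of proteins went opposite ways between the organs. Of 30 pairs in which textbook knowledge ties the first member to liver, 18 had both members measured. The first was called higher in 17 of these, a direction its choice favours. The second was called lower in 9, where 30.4% of all probe sets were lower. In 8 pairs the first was higher and the second lower. Fabp1 entered with Fabp5 and again with Fabp4, and Agt and Ace were paired by pathway. Gjb1, connexin 32 of hepatocyte gap junctions, read 12.56 to 12.86 in livers and 9.04 to 9.15 in lungs (3.63), whereas Gja1, connexin 43, read 7.99 to 8.59 in livers and 11.27 to 12.19 in lungs (-3.64). Cldn1 was at 2.14 and Cldn5 at -4.28, Pklr, liver pyruvate kinase, at 0.50 and Pkm, the muscle type, at -2.55, and Cox7a2 at 0.76 and Cox7a1 at -0.87. Other probe sets gave the same directions with other sizes, at 1.06 for Cldn1, 1.87 for Pklr and -0.45 for Pkm. In other pairs only the liver form passed the test by the probe set used. Arg1 was at 6.17 and Arg2, the mitochondrial arginase, at 0.02 (adjusted p = 0.787), though another probe set of Arg2 was lower in liver (-0.35, adjusted p = 0.0239). Fbp1 was at 5.04 and Fbp2 at 0.14 (adjusted p = 0.128), and Tdo2, tryptophan dioxygenase of liver, at 4.84 and Ido1 at -0.10 (adjusted p = 0.241). In 2 pairs both members were higher, as for Tfr2 (3.12) and Tfrc (0.36), the transferrin receptors.

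Some genes were high in both organs and lower in heart and spleen. Cyp2f2, a P450 of club cells and hepatocytes that oxidises naphthalene, read 13.36 to 13.77 in livers with a median of 13.46, against 13.61 to 14.04 in lungs with a median of 13.93. The ranges overlapped, the difference was -0.37 (SE 0.09, adjusted p = 0.00162), and Cyp2f2 averaged 9.20 ± 0.20 in hearts and 9.09 ± 0.17 in spleens (SD, n = 6 each). Cyp2b10 averaged 12.2 in livers, 12.8 in lungs, 9.84 in hearts and 9.76 in spleens.

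The following were chosen after their values were seen. Hp read 14.31 to 14.40 in livers and 13.87 to 14.22 in lungs (0.24, adjusted p = 0.00604), and 9.76 ± 0.13 in hearts and 10.63 ± 0.27 in spleens (SD, n = 6 each). Aldh1a1, retinal dehydrogenase 1, read 13.89 to 14.12 in livers and 13.80 to 14.08 in lungs (0.05, 95% interval within 0.5 of 0, adjusted p = 0.456), and 10.63 ± 0.45 in hearts. Inmt, indolethylamine N-methyltransferase, was lower in liver, at 12.06 to 13.12 in livers and 13.88 to 14.28 in lungs (-1.51), yet higher in liver than in spleen, where it averaged 8.44. Mgst1, microsomal glutathione transferase 1, and Cdo1, cysteine dioxygenase, were higher in liver by 1.41 and 2.17 and also higher in lung than in heart by 2.35 and 3.51. Hc, complement C5, did not pass, at 10.37 to 12.63 in livers and 10.60 to 11.75 in lungs (0.40, adjusted p = 0.145). Values such as those of Hp lie near the top of each array (14.52 to 14.61), and whether the scale limited their difference was not tested.

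**Figure D4:**
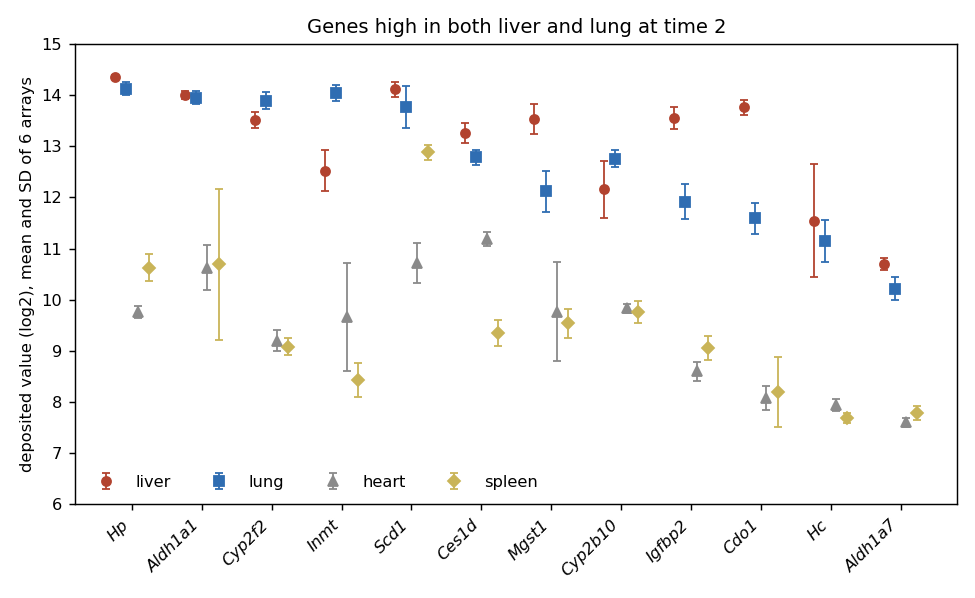
Deposited values (log2, vertical axis) of 12 genes at time 2, as mean and SD of 6 arrays each in liver, lung, heart and spleen. The 12 genes were picked by hand for being high in both liver and lung, so the pattern they share follows from that choice. Cyp2f2 stands at 13.5 in liver, 13.9 in lung, 9.20 in heart and 9.09 in spleen.

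Similar levels were common and could be bounded. At 6847 probe sets (55.1%) the 95% interval of the difference lay within 0.5 of 0, and 170 of them had a mean over both organs above 12. Gstm1, a glutathione transferase chosen after its values were seen, read 14.25 to 14.39 in livers and 14.23 to 14.28 in lungs (0.08, SE 0.05), and Rps18, a ribosomal protein chosen the same way, 14.00 to 14.07 in livers and 13.96 to 14.23 in lungs (-0.09, SE 0.06).

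Whether the difference between organs was alike in the strains was tested as the liver minus lung difference in A/J minus that in C57BL/6J. This term passed at 1997 probe sets (16.1%), 881 positive (7.09%) and 1116 negative (8.98%), and 161 of them reached 1 in size (1.3%), 34 positive (0.274%) and 127 negative (1.02%). Without 1 array the counts ranged from 331 positive and 609 negative (without A/J liver replicate 3) to 1467 and 1482 (without C57BL/6J lung replicate 1), so they rest on single arrays. Among the 10 genes with the smallest p, most varied within liver. Apcs, serum amyloid P, averaged 13.05 ± 0.11 in A/J livers and 10.78 ± 0.09 in C57BL/6J livers, but 7.21 ± 0.12 in A/J lungs and 7.29 ± 0.07 in C57BL/6J lungs (SD, n = 3 each). Its liver minus lung difference was 5.84 in A/J and 3.49 in C57BL/6J (term 2.35, SE 0.13, adjusted p = 6.11e-08). Fga averaged 10.64 ± 0.02 in A/J livers and 13.45 ± 0.05 in C57BL/6J livers, and its difference was 3.39 in A/J and 5.93 in C57BL/6J (term -2.53, SE 0.20). Cyp2c39 differed by 3.52 in A/J and 0.67 in C57BL/6J, Nnmt, nicotinamide N-methyltransferase, by 0.65 in A/J and 2.71 in C57BL/6J, and Psen2, a presenilin, by 0.41 in A/J and 2.90 in C57BL/6J.

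In 4 of these genes the organ with the higher value changed with strain. Cyp2b9 averaged 11.23 ± 0.28 in A/J livers and 8.04 ± 0.24 in A/J lungs, a difference of 3.20, whereas C57BL/6J livers averaged 7.85 ± 0.01 and lungs 8.16 ± 0.19 (-0.31). Baiap2l1, a membrane-bending adaptor, averaged 9.20 in A/J livers and 11.07 in A/J lungs (-1.87), and 9.78 in C57BL/6J livers and 9.22 in C57BL/6J lungs (0.57). Ifi204, an interferon-inducible DNA sensor, gave -2.32 in A/J mice and 0.41 in C57BL/6J mice, and Rhpn2, a rhophilin, gave -0.71 in A/J mice and 0.92 in C57BL/6J mice. Asl, argininosuccinate lyase of the urea cycle, gave 0.67 in A/J mice and 4.14 in C57BL/6J mice by 1 probe set, while another probe set did not separate the organs (0.11 over both strains, adjusted p = 0.281).

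The same contrast was fitted in the 12 liver and lung arrays of time 1, which the results above did not use. There 9855 probe sets differed (79.3%), 5837 higher (47.0%) and 4018 lower (32.3%), and by at least 1, 623 were higher (5.02%) and 1037 lower (8.35%). Of the 773 probe sets higher by at least 1 at time 2, 769 were called higher at time 1 (99.5%) and 2 lower, and 605 were higher by at least 1 at both times (78.3% of those at time 2 and 97.1% of those at time 1). Of the 1069 lower ones, 1066 were called lower at time 1 (99.7%), and 884 reached 1 at both (82.7% of time 2, 85.2% of time 1). Differences were smaller in size at time 1 for 661 of the 773 and 686 of the 1069, with a median of 1.81 at time 2 and 1.57 at time 1 for the higher set, and -1.52 at time 2 and -1.49 at time 1 for the lower set. Since the members were picked at time 2, a smaller size at the other time is partly built into that choice. The scale also differed between the times. In each array of time 2 a single probe set held the highest value, whereas at time 1 the highest value was shared by 11 to 14 probe sets in livers and 3 to 14 in lungs. Of the 773, 15 were at that value in at least 1 liver of time 1, and of the 1069, 7 in at least 1 lung of time 1, which makes their differences at time 1 lower limits. Time and array run cannot be told apart.

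The term for time, the difference at time 2 minus that at time 1, passed at 2783 probe sets (22.4%), 1369 positive (11%) and 1414 negative (11.4%), and 105 reached 1 in size (0.845%), 93 positive (0.749%) and 12 negative (0.0966%). The Gapdh gap between the 3′ and 5′ ends moved with this term, averaging 0.223 in livers and 1.44 in lungs at time 2, and 0.283 in livers and 0.866 in lungs at time 1, and its part in these counts was not tested. Alb was the plainest case among the markers. At time 2 it averaged 14.42 ± 0.02 in livers and 8.95 ± 0.59 in lungs, and at time 1 it averaged 14.34 ± 0.02 in livers and 12.30 ± 1.19 in lungs (SD, n = 6 each). The difference came to 5.47 at time 2, against 2.04 at time 1, where 5 of the 6 livers read Alb at the highest value of the array and the difference is therefore a lower limit. Of 25 genes for proteins that hepatocytes secrete, 19 had a positive term and 0 a negative one (limma, where 11% of all probe sets were positive and 11.4% negative). Ambp, for example, averaged 6.55 ± 0.10 in lungs at time 2 and 7.74 ± 0.65 in lungs at time 1, and Ttr 12.37 ± 0.28 in livers at time 2 and 10.90 ± 0.22 in livers at time 1 (term 1.71). The limit given for Alb can hold for other bright liver genes. Of the 773 probe sets higher by at least 1, 9 were at the array's highest value in all 6 livers of time 1. Its part in the count of 19 was not tested.

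Of the 27 cholesterol and fatty acid synthesis genes, 18 had a positive term and 1 a negative one, with the list's median difference at 0.54 at time 2 and 0.10 at time 1. Idi1, isopentenyl diphosphate isomerase, averaged 11.15 ± 0.43 in livers and 9.61 ± 0.23 in lungs at time 2, and 9.35 ± 0.14 in livers and 9.46 ± 0.13 in lungs at time 1 (term 1.65, SE 0.17, adjusted p = 1.03e-06). Fdps, farnesyl diphosphate synthase, averaged 11.60 ± 0.33 in livers and 9.94 ± 0.26 in lungs at time 2, and 9.87 ± 0.13 in livers and 10.10 ± 0.09 in lungs at time 1, by 1 probe set (term 1.88). Hmgcs1, the cytosolic synthase that precedes the rate-limiting reductase, was at 1.28 at time 2 and 0.22 at time 1. Sox2 differed more at time 2, at -4.70, than at time 1, at -2.59. Agxt, which detoxifies glyoxylate in peroxisomes, was at 4.64 at time 2 and 3.45 at time 1.

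**Figure D5:**
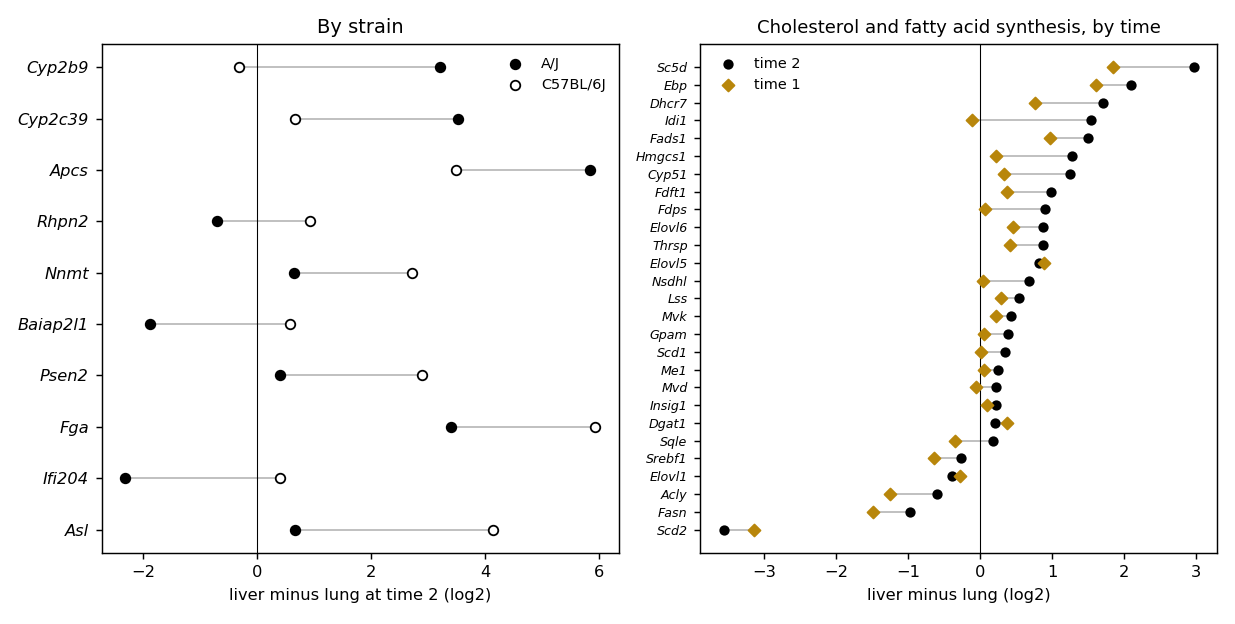
Left, liver minus lung at time 2 (log2) in A/J (filled) and C57BL/6J (open) for the 10 genes with the smallest p for tissue by strain, where Cyp2b9 has 3.20 in A/J mice and -0.31 in C57BL/6J mice. Right, the same difference at time 2 (circles) and time 1 (diamonds) for 27 genes of cholesterol and fatty acid synthesis, where Idi1 stands at 1.54 at time 2 and -0.11 at time 1.

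Several probe sets of 1 gene could disagree. Of 2073 such genes, 486 had at least 1 probe set called by 1 or more, and 54 of these had another called in the opposite direction. Bphl, a serine hydrolase, gave 1.71 by 1 probe set and -2.83 by another, and Zeb1, a zinc finger repressor, 1.03 and -1.43. For Bhmt the probe set behind its 7.18 was not the one with the higher mean over the series, which gave 0.43, and Thbd gave -5.08 by 1 probe set and -1.18 by another. Values for such genes are those of the probe set and not of the gene.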

How the data were processed

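Expression was read on Affymetrix MG-U74Av2 arrays. The values used are log2 signals from the table the authors deposited. The method by which the authors summarised and scaled the probes was not given in the sources used here, and no signal below background could be told from a true low level. Of 12488 probe sets, 66 controls were left out, and 10833 of the 12422 tested carry 1 gene symbol in the platform's probe table. Groups come from the sample titles. The main test was limma 3.58.1 in R 4.3.3 (lmFit and eBayes, strain as a block) on the 12 arrays of time 2, with p-values adjusted by Benjamini-Hochberg over the 12422 probe sets and called below 0.05. A second rule asked in addition for a difference of at least 1 log2 unit. Tissue by strain used the same arrays, and tissue by time the 24 liver and lung arrays. No gene set was tested. Each listed gene was read by its 1-symbol probe set with the highest mean over the 48 arrays. The members and lists were chosen with earlier results of these data known. Genes named are the 15 largest in each direction, up to 5 called members of each list in each direction, defining markers, pair members, transcription factors past 1 log2 unit, and the smallest p for strain (10) and time (8). Those named outside this rule are said to be. Simulated data had independent noise and 100 of 12422 probe sets changed at each size. Changes of 0.5 were recovered in 93% of cases for liver versus lung, 38% for tissue by strain and 74% for tissue by time. Changes of 1 were recovered in 100%, 87% and 100%, and false calls made up 5.85%, 5.3% and 4.92% of calls. Larger shares were called in the data (61.6%, 16.1% and 22.4%), and the adjustment depends on that share, so these rates need not hold there. Alternatives were the scaling, the strain term, a replicate block, filters, each strain alone and leaving out arrays. The number of arrays limits the precision.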

Additional observations from a re-analysis of the deposited data

Results flagged for a closer look

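Of 90 groups of 6 arrays examined (gene list levels and array measures in 1 organ), 8 held an array far from the others by Dixon's test, where chance gives about 1 in 20. The clearest was the exocrine pancreas list in liver, at 12.86 in C57BL/6J replicate 2 and at most 9.70 in the other livers. Liver A/J replicate 2 was highest for hepatocyte secreted proteins (12.74) and for antigen presentation (10.66). Lung C57BL/6J replicate 2 was highest for bile acid genes (8.561), lowest for macrophage genes (9.966) and lowest for endoplasmic reticulum genes (10.06). Lung C57BL/6J replicate 1 was highest for immediate early and stress genes (10.8), and lung A/J replicate 1 for skeletal muscle genes (9.005).

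The liver minus lung difference depended on strain by a test of the difference itself (limma, A/J minus C57BL/6J) most clearly for 10 genes. It was larger in A/J for Cyp2b9 (3.509), Cyp2c39 (2.848) and Apcs (2.353). The term was negative for Asl (-3.472), Ifi204 (-2.725), Fga (-2.535), Psen2 (-2.488), Baiap2l1 (-2.44), Nnmt (-2.065) and Rhpn2 (-1.628).

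It depended on time (time 2 minus time 1) by the same kind of test for 1110032A03Rik (2.43), Fdps (1.883), Ttr (1.712), Speg (1.231), Odf2 (1.21) and Agxt (1.192), and with a negative term for Sox2 (-2.107) and Arhgap39 (-0.7311). The probe set of 1110032A03Rik averaged 10.08 in livers and 8.48 in lungs at time 2, and 6.18 in livers and 7.005 in lungs at time 1. Speg, a muscle kinase, was higher in liver at time 2 (0.77) and lower at time 1 (-0.46) by 1 probe set, and another did not pass at time 2 (-0.06). Odf2, a centriole protein, was lower in liver by less at time 2 (-0.59) than at time 1 (-1.80) by the probe set tested, while both of its other probe sets were called higher in liver at time 2 (0.29 and 0.43). The cause was not tested, and time and array run cannot be told apart.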

How the results depend on the processing

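Of the counts at time 2, that of probe sets higher in liver moved by over 1.5 times only when C57BL/6J arrays were fitted alone (2477, against 3882 in all arrays). A/J arrays alone, with as many samples, gave 4503, and the cause was not tested. The tissue by time count lower by at least 1 was 7 after quantile normalization, against 12. Leaving out each array in turn gave 3499 to 4335 higher and 3609 to 3822 lower at time 2, and 752 to 784 higher and 1041 to 1132 lower by at least 1. At time 1 it gave 5599 to 5875 and 3939 to 4001, and by at least 1, 610 to 629 and 1005 to 1057. Tissue by strain gave 331 (without liver A/J replicate 3) to 1467 (without lung C57BL/6J replicate 1) positive and 609 to 1482 negative, and by at least 1, 35 to 41 and 83 (without lung C57BL/6J replicate 2) to 190. Tissue by time gave 1168 to 1508 and 1106 to 1750, and by at least 1, 80 to 111 and 9 to 17. Of the listed genes, 382 to 403 were higher and 335 to 352 lower.

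Replicate numbers did not pair the arrays: deviations of same-numbered livers and lungs correlated at -0.0364 to 0.175, and 2 of 6 arrays correlated best with their own number. With the replicate block, 3508 probe sets were higher and 3593 lower, against 3882 and 3772 without it, and 772 and 1069 by at least 1. The same block gave 822 and 1158 for tissue by strain, 1142 and 1082 for tissue by time and 5760 and 3971 at time 1.

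Differences of named genes kept their direction and side of the threshold in 8173 values, lost the call in 222 (68 genes) and gained it in 30 (14 genes). Signs turned in A/J arrays alone for Adh7 (0.29), Rhpn2 (-0.71), Scd1 (-0.000267) and Srebf1 (0.033), and for the endoplasmic reticulum list median (-0.013). In C57BL/6J arrays alone they turned for Baiap2l1 (0.57), Cyp2b9 (-0.31), Ifi204 (0.41) and the clock list median (-0.019). The cause was not tested. List medians moved in 63 of 946 values by more than the spread between arrays. That spread was the SD of the list's mean level over the 6 arrays of a tissue, both strains together, in liver or lung, whichever was larger. Of the moved values, 20 came from A/J arrays alone and 14 from C57BL/6J arrays alone.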
